A study of Mus musculus with 6 samples.

Results

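Carbonic anhydrases are zinc enzymes that interconvert carbon dioxide and bicarbonate, and in muscle they help move carbon dioxide and protons out of the working fibre. The 10 members described here are Car2, Car3, Car4, Car5b, Car8, Car9, Car11, Car12, Car13 and Car14, chosen by gene symbol from the 27131 genes of the deposited count table. Each symbol had 1 row in the table. The members were chosen with their counts and their difference between the groups already known. Their levels and differences are therefore given as a description, without a test of the family. Their calls come from the fit to all genes and add no support.

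The tissue was levator ani/bulbocavernosus muscle, which lies in the male pelvis and depends on androgen, taken from mice aged 14 weeks for RNA sequencing. There were 3 wild-type mice (WT) and 3 mice of the 113Q genotype, a knock-in that models spinal and bulbar muscular atrophy (SBMA), a disease of motor neurons and muscle caused by a long glutamine stretch in the androgen receptor. In a knock-in the altered receptor gene keeps its own promoter, so it is not limited to muscle. Each library came from the muscle of 1 mouse, and the labels name no other allele, treatment or strain. The question is how transcript levels differ in muscle of the model.

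Members of the family differ in where they work. Car2, Car3 and Car13 are cytosolic; Car2 is a very fast enzyme, and Car3 is a slow one that is abundant in skeletal muscle and in fat cells. Car5b sits in mitochondria, where bicarbonate feeds carboxylase reactions. Car4 is anchored to the outer face of the cell membrane, also on the capillary wall of muscle. Car9, Car12 and Car14 are membrane-spanning enzymes that face outward. Car8 and Car11 are carbonic anhydrase-related proteins that are known to lack the enzyme activity.

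The coding sequences show the part of the active site that separates these classes, and the same short stretch is therefore given for each member from the GENCODE mouse release M21 transcripts, aligned to Car2 through their translations. Capitals mark the 3 bases at the place of each of the first pair of zinc-binding histidine codons of Car2 (CAC or CAT encodes histidine).
Car2: atccagtttCACtttCACtggggc
Car3: cgccaattcCATcttCACtggggc
Car13: cggcagttcCATttgCACtggggg
Car5b: aagcagtttCATtttCATtgggga
Car4: gtacagttgCACctgCACtggtca
Car9: ttgcagttgCATctaCACtgggga
Car12: gagcagctgCACttgCACtggggg
Car14: gcccagctcCACctgCACtggggt
Car8: tatgaagttAGAtttCACtgggga
Car11: agtgaactgCGCctgCTAtttgga
Both histidine codons were present in 8 of the 10 members. Car8 kept 1 of them, with AGA in place of the other, and Car11 kept 0, with CGC and CTA in their places. Over the 45 pairs of members, between 42.9% and 63.5% of the aligned coding bases were identical, with the highest share between Car2 and Car3. No stretch of 31 bases was shared between the annotated transcripts of any pair (0 in total).

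The library totals ran from 43581087 to 73873481 estimated counts. Values are CPM, counts scaled to a common library size with TMM factors, which set the bulk of genes equal between libraries. These factors were 0.768 to 0.794 in WT and 1.26 to 1.32 in 113Q. With library totals alone the log2 fold change of the median gene was 0.73 in place of 0.01. All differences below are therefore relative to the bulk of other genes. In bulk muscle, fewer cells of a type and less RNA per cell cannot be told apart. With TMM scaling all 8 myofibre markers fell in 113Q; with library totals alone 7 had negative values and Des, desmin, had 0.28. Their summed level with TMM scaling was 145600 to 155400 CPM in WT mice against 43900 to 52420 CPM in 113Q, which marks every library as striated muscle.

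In 113Q muscle the most abundant member, Car3, was 5.79 times lower than in WT, and Car14 and Car9 were 4.03 and 8.25 times lower. Car11, Car12 and Car2 were 2.89, 2.81 and 1.88 times higher. In the fit to all genes with edgeR, 3 of the 10 members were called higher and 3 lower at an adjusted p below 0.05, where 34.6% of all 16960 genes were called (16.5% higher and 18.1% lower). All 10 members passed the filter on low counts. The median log2 fold change of the members was 0.03, beside 0.01 for all genes tested. The ranges of the groups did not overlap for 7 members, 4 higher and 3 lower, where 49.9% of all genes did not overlap (25.1% higher and 24.8% lower). Since the members were chosen with this comparison known, nothing is read from these shares.

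**Figure D1:**
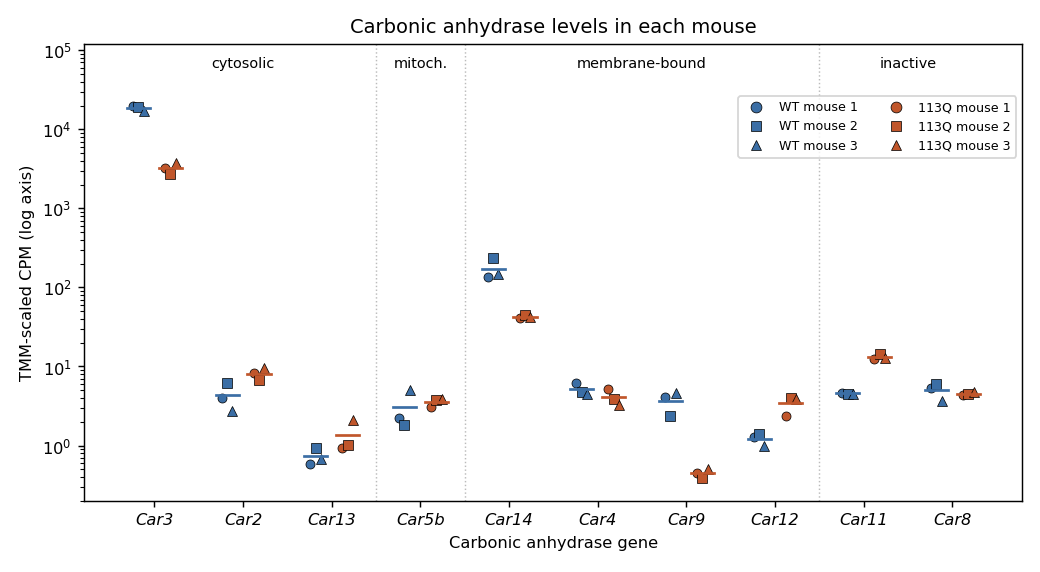
TMM-scaled CPM (log axis) of the 10 members in each of the 6 mice, grouped by the place of the protein; points are mice and short lines are group means. Car3, Car14 and Car9 lie lower in all 3 113Q mice than in all 3 WT mice, and Car2, Car11, Car12 and Car13 lie higher.

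Car3, the slow cytosolic enzyme, was at 19896, 19131 and 17244 CPM in WT mice against 3273, 2723 and 3727 CPM in the 113Q mice. The lowest WT mouse stood well above the highest 113Q mouse. The means were 18757 ± 1365 (SD, n = 3) and 3241 ± 503 (n = 3), a log2 fold change of -2.53 (SE 0.13). As a share of all estimated counts, Car3 alone took 1.54%, 1.47% and 1.37% of the WT libraries and 0.432%, 0.345% and 0.47% of the 113Q libraries. With library totals alone the log2 fold change was -1.81, so the direction did not rest on the TMM factors.

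Car3 is also a fat cell transcript, so adipocyte markers stand beside it. Their summed level was 484.8, 240.1 and 783.3 CPM in WT mice against 238.0, 389.5 and 481.7 CPM in 113Q, with overlapping groups. Adipoq, the fat cell hormone adiponectin, was at 18.4, 2.59 and 49.7 CPM in WT mice against 10.3, 21.0 and 26.6 CPM in 113Q. WT mouse 2, with the lowest adipocyte sum of its group, had 19131 CPM of Car3, and WT mouse 3, with the highest, had the lowest Car3 level of the group. Of the 11 adipocyte markers, 1 fell (Fabp4, by 0.68 on the log2 scale) and 10 did not pass the test. With library totals alone Fabp4 had a log2 ratio of 0.03 and its groups overlapped. The part of fat cells in the Car3 level was not tested.

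Other members of the cytosolic class went the other way. Car2, the fast enzyme, was at 4.03, 6.17 and 2.73 CPM in WT mice against 8.21, 6.65 and 9.47 CPM in 113Q. WT mouse 2 came close to 113Q mouse 2, but the groups did not overlap. The log2 fold change was 0.91 (SE 0.29), and Car2 left the called genes when any mouse other than WT mouse 2 was left out (log2 fold change 0.66 to 1.04) or when the replicate number was used as a block (0.97). Car13 was the member with the fewest counts in WT, 20, 49 and 35. It was at 0.592, 0.925 and 0.674 CPM in WT mice against 0.927, 1.02 and 2.09 CPM in 113Q, where mouse 3 stood apart. The highest WT mouse and the lowest 113Q mouse had nearly the same level, and Car13 was not among the called genes (log2 fold change 0.87, SE 0.39; 0.41 without 113Q mouse 3).

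Erythrocytes carry Car1 and Car2, so erythrocyte markers stand beside them. The 8 erythrocyte markers in the table summed to 26.7 to 45.9 CPM in WT mice against 21.3 to 44.5 CPM in 113Q, and 0 of the 3 tested passed in edgeR, with 0 at an unadjusted p below 0.05. The adjusted p was 0.996 for Hbb-b1 and 0.770 for Hba-a1, which encode globins. Car1, the other red cell enzyme, was at 1.303, 1.925 and 1.636 CPM in WT mice against 1.45, 1.25 and 1.01 CPM in 113Q, with overlapping groups. The part of red cells in the Car2 level was not tested.

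The genes of Car13, Car1, Car3 and Car2 lie in that order on chromosome 3 (GRCm38, the assembly of mm10). Car13 spans chr3:14641727-14663002 on the plus strand and Car1 chr3:14766216-14808368 on the minus strand. Car3, at chr3:14863512-14872523, ends 13750 bases before Car2, at chr3:14886273-14900770, and both are on the plus strand. In this cluster Car3 was lower in 113Q, Car2 was higher, and Car1 had a log2 fold change of -0.39 (edgeR adjusted p = 0.298). Neighbours on the same strand thus had differences of opposite sign.

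Car5b, the mitochondrial member on the X chromosome (chrX:163976822-164027997), was at 2.25, 1.83 and 5.10 CPM in WT mice against 3.05, 3.77 and 3.86 CPM in 113Q. WT mouse 3 was the highest of all 6 libraries, the groups overlapped, and the coefficient of variation was 58.1% in WT and 12.5% in 113Q. The log2 fold change was 0.21 (SE 0.37); without WT mouse 3 it was 0.80 and Car5b entered the called genes. The value for this gene therefore rested on a single library. The other mitochondrial member, Car5a, had estimated counts of 0, 5 and 0 in WT and 0, 3 and 0 in 113Q and was not tested.

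Among the membrane-bound members, Car14 had the highest level. It was at 135.7, 233.6 and 146.6 CPM in WT mice against 41.1, 45.3 and 41.7 CPM in 113Q. WT mouse 2 stood above the other WT mice, while the 113Q mice lay close together, and the groups did not overlap. The log2 fold change was -2.01 (SE 0.21), between -2.16 and -1.72 when a mouse was left out. Car14 (chr3:95897768-95904691, minus strand) shares 445 exon bases, 17.5% of its merged exons, with Aph1a on the other strand, and the strand setting of the counting is not given in the sources used here. Aph1a, a subunit of the gamma-secretase protease, was at 68.8 ± 5.92 CPM in WT mice against 75.9 ± 2.65 CPM in 113Q (n = 3 each; edgeR adjusted p = 0.232).

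Car9, known as an enzyme induced by low oxygen, had the largest log2 fold change of the members, -3.04 (SE 0.31). It was at 4.09, 2.40 and 4.64 CPM in WT mice against 0.447, 0.391 and 0.504 CPM in 113Q, from 138, 127 and 241 estimated counts in WT and 40, 35 and 47 in 113Q. The lowest WT mouse, mouse 2, had several times the level of any 113Q mouse. Car9 lies at chr4:43506966-43513729 on the plus strand, 982 bases from Tpm2, the gene of beta-tropomyosin, which points toward it from the minus strand. Tpm2 was at 8259 ± 1522 CPM in WT mice against 2228 ± 128 CPM in 113Q, so the neighbour was lower too. For each 10000 CPM of Tpm2 there were 5.73, 2.40 and 6.07 CPM of Car9 in WT and 2.15, 1.71 and 2.18 in 113Q. These ranges did not overlap, and the part of reads from beyond the annotated end of Tpm2 in the Car9 count was not tested. Car9 also shares 214 exon bases with the antisense gene Gm12454, at 1.26 ± 0.207 CPM in WT mice against 0.799 ± 0.288 CPM in 113Q.

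Car12, an outward-facing enzyme of many epithelia, was at 1.27, 1.396 and 0.982 CPM in WT mice against 2.38, 3.96 and 3.93 CPM in 113Q. All 113Q mice were above all WT mice, and mouse 1 was the lowest of the 113Q group. The log2 fold change was 1.49 (SE 0.27), between 1.35 and 1.70 when a mouse was left out. Car4, the membrane-anchored enzyme of capillaries, was at 6.13, 4.74 and 4.52 CPM in WT mice against 5.26, 3.91 and 3.24 CPM in 113Q, with overlapping groups and a log2 fold change of -0.31 (SE 0.22). With TMM scaling all 12 endothelial markers fell in 113Q, with a median log2 fold change of -0.63, but with library totals alone 9 of the 12 had positive values, in a range of -0.13 to 0.42. Their summed level with TMM scaling was 558.3 to 689.0 CPM in WT mice against 385.7 to 408.2 CPM in 113Q. Pecam1, an adhesion molecule of vessel walls, was at 110.1, 115.2 and 95.7 CPM in WT mice against 62.6, 60.6 and 61.7 CPM in 113Q. For each 100 CPM of these markers there were 0.918, 0.687 and 0.810 CPM of Car4 in WT and 1.36, 0.999 and 0.793 in 113Q, again with overlap.

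Of the members without the full zinc site, Car11 varied less in WT and Car8 varied less in 113Q. Car11 was at 4.68, 4.47 and 4.52 CPM in WT mice against 12.4, 14.4 and 12.8 CPM in 113Q. Its coefficients of variation were 2.35% in WT and 8.12% in 113Q, beside 24.9% and 4.11% for Car8. The groups were far apart, with a log2 fold change of 1.53 (SE 0.12) and a range of 1.47 to 1.58 when a mouse was left out. Car11 (chr7:45699843-45704682, plus strand) ends 406 bases before Dbp, a transcription factor of the circadian clock on the same strand. Dbp had 150.1 ± 25.5 CPM in WT mice against 111.0 ± 16.9 CPM in 113Q, a difference opposite in sign to that of Car11 (edgeR adjusted p = 0.0567). Car8 was at 5.33, 6.08 and 3.64 CPM in WT mice against 4.39, 4.46 and 4.74 CPM in 113Q. The 113Q values lay inside the WT range, with a log2 fold change of -0.15 (SE 0.21) that became 0.58 with library totals alone.

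Levels were compared between members per kilobase of the longest coding transcript. In WT, Car3 stood first at 11170 ± 813 CPM per kilobase (SD, n = 3), and Car14 was second at 100.6 ± 31.4. Car4 came next at 4.08 ± 0.694 CPM per kilobase, above all values of Car11. Below it came Car11 (2.88 ± 0.0676), Car2 (2.41 ± 0.971), Car9 (1.83 ± 0.578), Car8 (1.30 ± 0.324) and Car5b (0.891 ± 0.518), each overlapping the next of these. Car12 and Car13 were last, at 0.328 ± 0.0573 and 0.318 ± 0.0754 CPM per kilobase, and could not be ordered.

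In 113Q the order of the less abundant members was another. Car3 and Car14 still stood first, at 1930 ± 300 and 24.98 ± 1.33 CPM per kilobase. Car11 came next, at 8.32 ± 0.675 CPM per kilobase, clear of Car2 (4.54 ± 0.789), which overlapped Car4 (3.29 ± 0.819). Car8 (1.18 ± 0.0483) was clear of Car5b (1.04 ± 0.130), while Car5b overlapped Car12 (0.920 ± 0.243) and Car12 overlapped Car13 (0.585 ± 0.282). Car9 went from sixth to last, at 0.221 ± 0.0279 CPM per kilobase. With the merged exons of a gene as its length, Car3, Car14, Car4, Car11, Car2, Car9, Car8 and Car5b kept their WT ranks, and Car12 and Car13 changed places; in 113Q, Car13 moved from 9th to 7th.

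**Figure D2:**
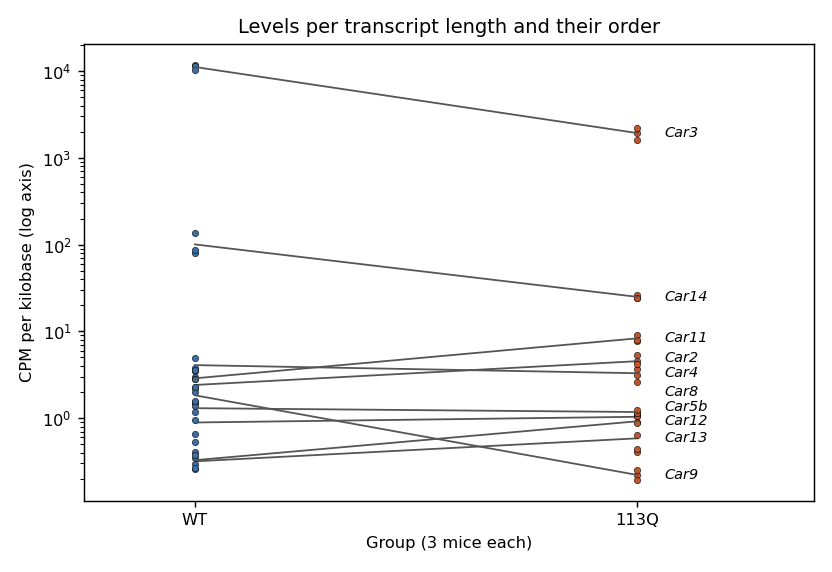
Levels per kilobase of transcript (log axis) in WT and 113Q; points are mice (3 per group) and lines join group means. Car11 lies above Car4 in 113Q and below it in WT, and Car9 is the lowest member in 113Q.

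Summed over the 10 members, the family was at 11280 ± 816 CPM per kilobase in WT and 1975 ± 298 in 113Q, a log2 ratio of -2.51. Car3 made up 99.2%, 98.7% and 99.0% of that sum in WT and 97.8%, 97.2% and 98.0% in 113Q, and the sum followed Car3. The other 9 members together were at 94.1, 150.8 and 99.0 CPM per kilobase in WT and 43.9, 46.4 and 44.9 in 113Q. Within these 9, Car14 held 84.3%, 90.6% and 86.6% in WT and 54.8%, 57.2% and 54.3% in 113Q. Car11 held 3.14%, 1.87% and 2.88% in WT and 17.8%, 19.6% and 18.0% in 113Q. A protein known to lack enzyme activity thus took a larger share of the transcripts besides Car3 in each 113Q mouse than in any WT mouse.

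A ratio within each library is free of the scaling factor, and the summed myofibre markers, themselves 3.01 times lower in 113Q, gave such a reference. For each 10000 CPM of these markers, Car3 was at 1363, 1231 and 1184 CPM in WT mice against 745.5, 521.0 and 711.0 CPM in 113Q. The groups did not overlap, and the ratio was 1.91 times lower in 113Q. Car9 was also lower against these markers, by 2.76 times and without overlap. Car14 was at 9.30, 15.0 and 10.1 CPM per 10000 CPM of markers in WT and 9.37, 8.67 and 7.95 in 113Q, and these values overlapped, with a ratio of the means 1.32 times lower in 113Q. On the same scale Car11, Car12, Car2 and Car13 were 8.72, 8.38, 5.75 and 5.499 times higher. Car5b, Car8 and Car4 were 3.46, 2.74 and 2.48 times higher, and for all 7 the groups did not overlap. Since the markers were 3.01 times lower, a gene with equal CPM in both groups would be about 3.01 times higher on this scale. The share of all genes without overlap on it was not counted, so nothing is read from the number 7. This reference was chosen after the values had been seen.

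**Figure D3:**
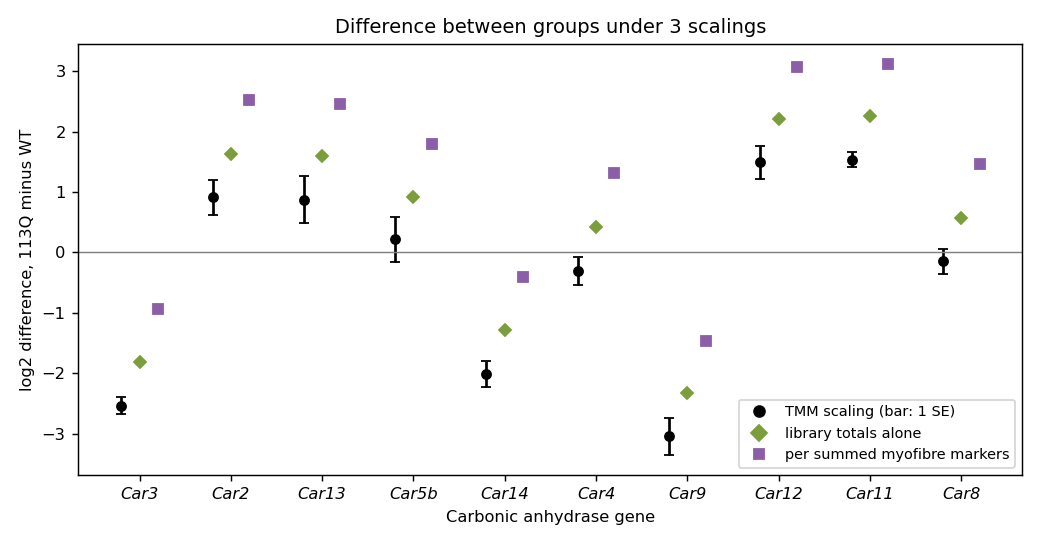
Log2 difference between 113Q and WT for each member under TMM scaling (circles, bars 1 SE), library totals alone (diamonds) and as a ratio to the summed myofibre markers within each library (squares). Car3, Car14 and Car9 stay below 0 and Car2, Car13, Car12, Car11 and Car5b above 0 on all 3 scales, while Car4 and Car8 change sign.

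Some libraries held epithelial transcripts. Epcam, an adhesion molecule of epithelia, was at 0, 3.83 and 0.0385 CPM in WT mice against 0, 8.29 and 10.2 CPM in 113Q. Of the 14 epithelial and gland markers, 13 were tested and 0 passed in edgeR, with 0 at an unadjusted p below 0.05. They summed to 5.09, 81.4 and 4.99 CPM in WT mice against 3.28, 64.0 and 128.1 CPM in 113Q. Car6, the secreted enzyme of salivary and other glands, had the same split: 0.118, 9.49 and 0 CPM in WT mice against 0.112, 2.71 and 17.7 CPM in 113Q. Within each group, 4 of the 10 members, Car8, Car12, Car13 and Car14, were also higher in the libraries with Epcam of at least 1 CPM than in those below it. In 113Q the gaps were narrow for Car8 (4.46 and 4.74 against 4.39 CPM) and Car14 (45.3 and 41.7 against 41.1 CPM). The share of all genes with such an order was not counted, so nothing is read from this number. In the libraries below 1 CPM of Epcam, called without Epcam from here, which are WT mice 1 and 3 and 113Q mouse 1, the log2 fold change of Car12 was 1.08 and Car12 was not among the called genes. With a term for Epcam in the fit it was 1.29 and Car12 was called. For Car2 these values were 1.29 and 0.83, and for Car13 0.54 and 0.65. Car3, Car9, Car11 and Car14 had values of -2.50, -3.28, 1.43 and -1.78 in the libraries without Epcam, and each was called there. The part of epithelial tissue in the levels of these members was not tested.

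**Figure D4:**
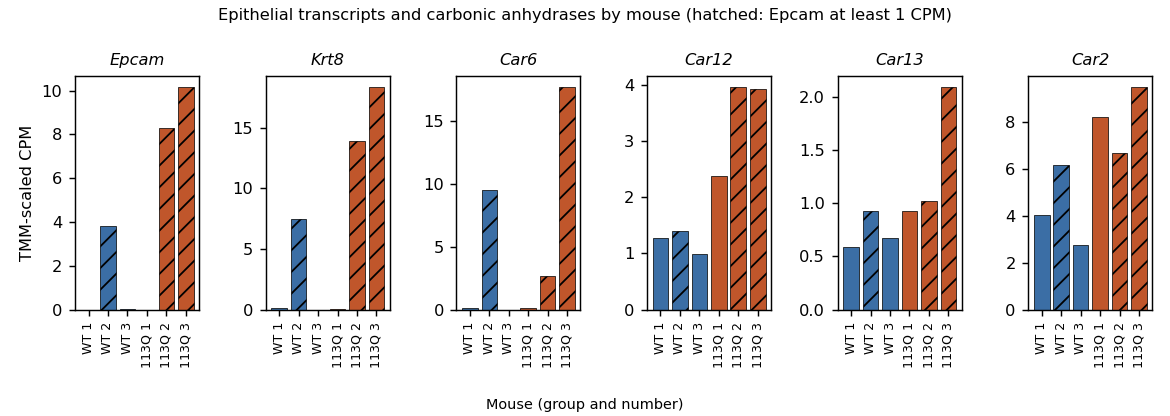
TMM-scaled CPM of 2 epithelial markers (Epcam, Krt8) and of Car6, Car12, Car13 and Car2 in each mouse, with hatched bars for the libraries with Epcam of at least 1 CPM. Car6 is near 0 in every unhatched bar; Car12 in 113Q mouse 1, which has no Epcam, is 2.38 CPM, above all 3 WT mice.

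The remaining marker lists were measured beside the family. Of 8 smooth muscle markers 1 rose (Acta2) and 2 fell (Des and Synpo2), of 10 Schwann cell markers 2 rose (Sox10 and Pmp22), of 10 macrophage markers 1 rose (Aif1), and the others did not pass. Of the 8 smooth muscle markers, 6 had an unadjusted p below 0.05, and the median log2 fold change was 1.17. Cnn1, Myh11 and Tagln, contractile genes of smooth muscle, had levels 8.07, 4.66 and 3.22 times higher in 113Q with no overlap, and did not pass (edgeR adjusted p = 0.0952, 0.111 and 0.0826). Of 8 fibroblast markers 0 passed in edgeR, with 3 at an unadjusted p below 0.05. The summed levels of WT and 113Q overlapped for Schwann cells (169.6 to 217.4 and 172.7 to 248.5 CPM), macrophages (104.8 to 145.0 and 119.5 to 137.0 CPM) and fibroblasts (845.9 to 1558 and 1281 to 1710 CPM). Without Des, which striated muscle also expresses, the smooth muscle markers summed to 702.4, 1018 and 1166 CPM in WT mice against 2800, 1909 and 1397 CPM in 113Q, without overlap. Their part in the levels of the members was not tested.

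Of the 6 carbonic anhydrases outside the 10 members, 4 were tested and 0 passed in edgeR, with 1 at an unadjusted p below 0.05; DESeq2 and limma voom also called 0. Car7, a cytosolic enzyme of nerve and muscle, was at 4.23, 4.04 and 2.46 CPM in WT mice against 2.05, 2.85 and 1.90 CPM in 113Q (log2 fold change -0.66, edgeR adjusted p = 0.0958). Car15, a membrane-anchored enzyme, was at 1.69, 0.793 and 0.616 CPM in WT mice against 1.36, 1.21 and 0.922 CPM in 113Q. Car10, the other related protein of the Car11 kind, had at most 5 estimated counts in a library and was not tested.

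Carbonic anhydrases work with transporters that carry bicarbonate, protons and lactate, and lists of such genes were tested in the same fit. Over the 7 acid-base lists together, 42 of 58 genes in the table were tested. Of these, 8 rose, 11 fell and 23 did not pass, with a median log2 fold change of 0.05 beside 0.01 for all genes. Among all 16960 genes, 34.6% were called (16.5% higher and 18.1% lower), and these shares stand beside each list that follows. Of 8 tested bicarbonate transporters, 2 rose and 4 fell. Slc4a3, an anion exchanger of excitable tissue, rose from 10.5, 12.3 and 13.6 CPM to 50.4, 38.9 and 40.1 CPM (log2 fold change 1.83, edgeR adjusted p = 6.11e-05), and the groups were far apart. Slc4a7 and Slc4a4, sodium-bicarbonate cotransporters, fell by 1.41 and 1.35 on the log2 scale (edgeR adjusted p = 0.000108 and 0.000229). Slc26a6, an anion exchanger, fell by 0.81 (edgeR adjusted p = 0.00072), but it had -0.09 and no call with library totals alone. Slc4a2, another anion exchanger, rose by 0.54 and Slc4a8, a sodium-coupled transporter, fell by 0.91; the latter lost its call with library totals alone and without 113Q mouse 2 or 3 (edgeR adjusted p = 0.496, 0.0613 and 0.0583). The 4 transporters that fell had negative values in every alternative fit.

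Of 6 tested genes of monocarboxylate transport, 3 fell and 1 rose. Slc16a3, the lactate exporter MCT4 of fast fibres, was at 452.9, 474.1 and 408.5 CPM in WT mice against 58.7, 114.5 and 86.3 CPM in 113Q, a log2 fold change of -2.36 (edgeR adjusted p = 0.000606). Slc16a1, which encodes MCT1, fell by 1.60 on the log2 scale (edgeR adjusted p = 9.7e-06). The chaperones of these transporters went in opposite directions: Bsg, basigin, fell by 0.73 (-0.01 and no call with library totals alone), and Emb, embigin, rose by 1.37 on the log2 scale (edgeR adjusted p = 0.0153, but 0.0596 without WT mouse 3). Of 10 tested sodium-proton exchangers and their regulators, 3 rose and 0 fell. Among those that rose were the exchanger Slc9a2, by 1.24, and the regulator Slc9a3r1, by 1.01 on the log2 scale (edgeR adjusted p = 0.000135 and 0.00387). Slc9a5 did not pass (log2 fold change -0.54, edgeR adjusted p = 0.0747). In the libraries without Epcam, Slc9a3r1 lost the call (edgeR adjusted p = 0.11).

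Of 3 tested water and gas channels, 2 fell: Aqp4, the water channel of the fast fibre membrane, by 2.23 and Aqp1, a channel of capillaries and red cells, by 0.74 on the log2 scale (edgeR adjusted p = 4.3e-06 and 0.00154). With library totals alone Aqp1 was at -0.02 and not called. Aqp5, a gland water channel, followed the epithelial markers, at 0.178, 2.02 and 0 CPM in WT mice against 0.0335, 11.2 and 15.8 CPM in 113Q, and did not pass. Of 8 tested enzymes that use bicarbonate, 1 rose, 2 fell and 5 did not pass; these were the propionyl-CoA carboxylase subunits Pcca (log2 fold change 0.41) and Pccb (-0.31) and the methylcrotonyl-CoA carboxylase subunit Mccc2 (-0.39). Pccb and Mccc2 turned positive with library totals alone (0.41 and 0.33), where all 8 tested enzymes were called higher. In that fit 11015 of all 16960 genes were called higher. In the fits without 113Q mouse 1 or 2, Pccb was not called (edgeR adjusted p = 0.0531 and 0.0578). With the replicate block 1 of the 8 tested enzymes was called lower, and with a term for Epcam 4 were. Mccc1, the other subunit of the latter enzyme, did not pass (log2 fold change 0.14, edgeR adjusted p = 0.161). Of 3 tested genes for histidine dipeptides, which buffer protons in muscle, Cndp2, a dipeptidase, rose by 0.30 (edgeR adjusted p = 0.0253, but 0.0647 to 0.0965 without WT mouse 1 or 2 or 113Q mouse 2 or 3, 0.0595 with the replicate block and 0.524 in the libraries without Epcam), and Carns1 and Gadl1 did not pass. With library totals alone all 3 were called higher.

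**Figure D5:**
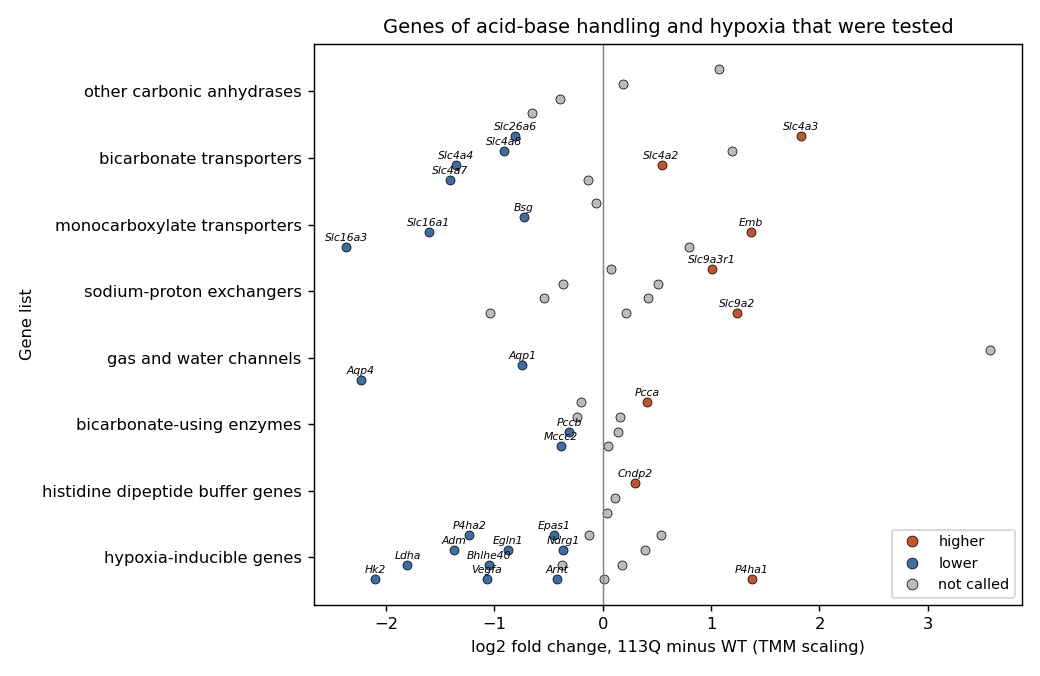
Log2 fold change (113Q minus WT, TMM scaling) of the tested genes in 8 lists: the 7 acid-base lists and the hypoxia-inducible genes; each point is a gene, coloured by its call in the fit to all genes, and 1 tested gene is not drawn. Slc16a3, Aqp4 and Hk2 are the lowest called genes and Slc4a3 the highest.

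Car9 and Car12 are known targets of the hypoxia-inducible factors, and a list of such factors and targets was read beside them. Of 17 tested genes, 1 rose and 10 fell, while 6 missed the threshold; the median log2 fold change was -0.42, but 0.30 with library totals alone, where 5 fell and 8 rose. Hk2, a hexokinase, and Ldha, a lactate dehydrogenase subunit, fell by 2.097 and 1.80 on the log2 scale, and Egln1, an oxygen sensor of the pathway, fell by 0.88 (edgeR adjusted p = 1.1e-05, 1.29e-05 and 0.000282). P4ha1, a collagen prolyl hydroxylase, rose by 1.38 (edgeR adjusted p = 0.000603), while P4ha2, the other catalytic subunit of this kind, fell by 1.23 (edgeR adjusted p = 0.000167). Among the genes that fell, Arnt, Ndrg1 and Epas1 turned positive with library totals alone, and Egln1 was at -0.16 and not called (edgeR adjusted p = 0.142).

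The core letters of the element bound by these factors are ACGTG. They were searched on either strand in RefSeq promoter windows (GRCm38.p6, 250 bases before to 50 after a start). Windows were found for 6 of the 10 members and not for Car2, Car3, Car8 and Car13. The match and 10 bases on each side are shown for the windows that held it, since Car9 and Car14 are among the lowered members and Car4 is not. Capitals mark the match, which lies on the minus strand of transcription in each.
Car9: atttccgatgCACGTacagcccgtc
Car14: cccccctcctCACGTacaccggttt
Car4: agccgactccCACGTctagccgtcc
They lie at chr4:43506998-43507022 on the plus strand, chr3:95904678-95904702 on the minus strand and chr11:84957746-84957770 on the plus strand. The windows of Car5b, Car11 and Car12 held no such letters. Of all 32851 windows, 19.6% held a match, and a match is a description of the letters, not of binding. Other patterns searched in these windows were CANNTG, found in Car5b, Car9, Car11 and Car14, and GGGCGG, found in Car5b and Car12. AGAACA was found in Car14, TATAAA in Car4 and a MEF2 pattern in no window of the 6 members. Of all windows, 72.3%, 35.7%, 19.0%, 13.6% and 3.19% held these patterns in turn.

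Because Car3 is known to be rich in slow fibres, a list of genes of slow and oxidative fibres was also read. Of 10 tested, 3 rose, 2 fell and 5 did not pass. Atp2a2, a calcium pump of slow fibres and heart, rose by 1.19 and Casq2, a calcium buffer, by 0.99 on the log2 scale, while Myl3 fell by 4.41 and Myh2, the myosin of fast oxidative fibres, by 3.07 (edgeR adjusted p = 0.000161, 0.0011, 3.8e-06 and 0.000384). Tnnt1, slow troponin T, rose by 1.53 (edgeR adjusted p = 0.00947). Myh7, the slow myosin itself, was at 1.16, 1.13 and 1.44 CPM in WT mice against 0.179, 1.67 and 0.654 CPM in 113Q.

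The genes whose levels ran most like those of the 3 members with the highest CPM were sought among 10566 genes with a mean of at least 5 CPM. The measure was the root mean square difference of mean-centred log2 CPM over the 6 libraries, with 0.5 added to each CPM. This addition makes the differences of genes with low CPM smaller. For Car3 the closest were Opcml, an adhesion molecule (0.087), Aldoa, the glycolytic aldolase A (0.156), 2310001H17Rik (0.173), Slc38a2, an amino acid transporter (0.176), and Ybx2, an RNA-binding protein (0.204). Opcml was at 15.4, 15.6 and 16.1 CPM in WT mice against 2.36, 1.79 and 2.92 CPM in 113Q, so its 113Q mice stood in the same order as those of Car3 and its WT mice in the opposite order. Without the added 0.5, the log2 ratios of the group means were -2.74 for Opcml and -3.10 for Ybx2, beside -2.53 for Car3. For Car14 they were Mttp (0.0701), Tpm2 (0.113), Mreg (0.117), Tmem100 (0.128) and Ppp1r3c, a glycogen-targeting phosphatase subunit (0.131). For Car11 they were Laptm4b (0.0665), Sort1, the sorting receptor sortilin (0.0704), Nhsl1 (0.0708), Ephx1, an epoxide hydrolase (0.0782), and Tmco4 (0.0964). With 2 groups of 3, such likeness is mostly a like difference between the groups.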

How the data were processed

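The authors deposited a table of estimated counts per gene, not scaled to depth, which are not all whole. The submitters' processing notes name, with no roles or order, the build mm10, Cuffdiff 2.1.1, TopHat2 2.0.9, Cufflinks, Bowtie2 2.1.0, FastQC 0.10.0 and cutadapt. The sources used here do not state annotation, filters or strand. Libraries were made with the TruSeq mRNA-Seq kit from Trizol-extracted RNA, per the labels.

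Counts were rounded (5.38% to 5.96% were fractional), and groups came from the labels, with 1 column per mouse. With edgeR 4.0.16 in R 4.3.3, genes were filtered with filterByExpr (minimum count 10), scaled by TMM, and tested 113Q minus WT by a two-sided robust quasi-likelihood test with Benjamini-Hochberg adjustment over all 16960 genes tested (threshold 0.05). The script was tested on simulated data. SE is the log2 fold change over the square root of F. The members and lists were chosen with earlier results of these data known. Names come from the members, the other carbonic anhydrases, up to 4 genes of each pathway list with the smallest p the 2 markers per list with the highest CPM with Epcam, Adipoq and Pecam1, and nearest patterns; other genes named, such as Myh7, P4ha1, Tnnt1 and gene neighbours, were chosen after their values were seen.

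Alternatives were DESeq2 1.42.0, limma 3.58.1 voom, RLE and upper-quartile factors, library totals, other filters, unrounded counts, non-robust estimates, omission of single mice, the replicate number as a block, and handling of Epcam libraries; ratios to myofibre markers were added after seeing the data. Lengths and positions come from GENCODE M21. The values of 1 gene in the lists are not reported here, though the list counts include it.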

Additional observations from a re-analysis of the deposited data

How the results depend on the processing

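Of the members, Car3, Car9, Car11, Car14 and Car12 kept their direction in all alternative fits. Outside the fit to the libraries without Epcam, where Car12 had a log2 fold change of 1.08, they also kept their call. Since the members were chosen with this comparison known, this describes the fits and is no added support. With library totals alone, 11015 genes were called higher and 710 lower, 5 members were called higher, 22 acid-base genes were higher and 5 lower, the summed family level had a log2 ratio of -1.79, and Car8 changed sign to 0.58 and was called. In the libraries with Epcam under 1 CPM, 1300 genes were higher and 1827 lower, and 5 acid-base genes were higher; this fit has 3 libraries, and its lone 113Q mouse is assumed to vary like the WT mice. Leaving out each mouse gave 2004 to 2559 genes higher and 2312 to 2843 lower, 2 to 3 members higher and 3 lower, 7 to 8 acid-base genes higher and 9 to 13 lower, and a log2 ratio of the summed family between -2.62 and -2.41. Deviations of same-numbered mice from their group means had r of 0.0849, 0.248 and -0.319, and those of differently numbered mice -0.359 to 0.384. With 3 mice a group, these values cannot show whether the numbers pair the mice. With the replicate block 2154 genes were higher and 2583 lower, 2 members were higher and 3 lower, and Car2 lost its call. At the lowest levels, Car13 in WT rests on 20 to 49 counts and Car9 in 113Q on 35 to 47 counts, and 3 mice a group limit what small differences can be seen.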
